A study of Mus musculus with 24 samples.

Results

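DNA damage sensing and repair genes were followed in neonatal mouse brain, as a list of 31 genes that share this function; the list was drawn up with earlier results of these data known. Rows for 29 of them were found among the 757 endogenous genes of the nCounter Mouse Neuroinflammation panel, in which probes with coloured barcodes bind RNA and are counted singly without amplification. The other 2 names, Ercc6 and Fancd2os, were not analysed here. The animals were CD1 mice, an outbred stock, of both sexes at postnatal day 9. In the hypoxic-ischemic brain injury arm (HIBI; pups 1, 4, 5 and 7) the right common carotid artery was cauterized and the pups then breathed 8% oxygen for 30 min. In the sham arm (pups 2, 3, 6 and 8) the neck was opened under the same anesthesia and analgesia without closing the vessel, and the pups stayed in normal air away from the dam. All pups were killed 30 min after the end of hypoxia or normoxia, and the right cortex, right striatum/thalamus and right cerebellum of each pup gave 24 libraries, 4 of each arm in each region. The cerebellum lies outside the territory of the carotid artery. No group had hypoxia alone or ligation alone, so hypoxia and surgery with closure of the artery cannot be told apart in any region. In the other 2 regions ischemia cannot be told apart from them either.

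DNA is broken, oxidized and alkylated in every cell, and separate machineries repair each kind of lesion. Sensor complexes act at breaks and stalled forks, where MRN recruits the kinase ATM and the 9-1-1 clamp helps to activate the kinase ATR. These kinases hold the cell cycle and call in repair by homologous recombination, end joining, crosslink repair, or excision of bases and nucleotides. At postnatal day 9 granule cell precursors still divide in the outer layer of the mouse cerebellum, whereas neurons of the cortex, striatum and thalamus have left the cell cycle. After hypoxia-ischemia, oxidized bases and strand breaks are repaired mainly by base excision, and strand breaks activate poly(ADP-ribose) polymerases such as Parp1.

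Totals ran from 855129 to 1135000 counts per library. Detection was judged against the mean plus 2 SD of the 8 negative control probes of the same library, which lay between 29.5 and 43.5 counts. Above it were 27 of the 29 genes in all 24 libraries, Mgmt in 16 and Rad51b in 6, so that values of Rad51b and in part of Mgmt sit near the background. Regional identity matched the labels by the markers on the panel: Tbr1, of cortical excitatory neurons, had 842 to 1064 normalized counts in cortex and at most 139.7 elsewhere, Slc17a6, the glutamate transporter of thalamic neurons, 8038 to 13843 in striatum/thalamus and at most 6266 elsewhere, and Eomes, of cerebellar unipolar brush cells, 191 to 841 in cerebellum and at most 93.0 elsewhere. Markers that define cerebellar granule cells or striatal neurons were not among the genes measured. Ttr, the choroid plexus transcript, was uneven: in striatum/thalamus HIBI pups 4 and 5 had 3117 and 2396 normalized counts and the other 6 pups 68.5 to 146.9, and in cerebellum it ran from 138 to 8466 across pups. The tissue is bulk RNA, in which fewer cells of a type and less RNA per cell cannot be told apart. The levels given below are normalized counts, scaled with 1 set of factors over all 24 libraries, and always in the pup order given above. Fold changes come from fits scaled within the libraries compared, so a ratio of printed means can differ slightly from the fold.

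The largest contrast among these genes was between regions of the uninjured brain, and the promoters of 4 genes that were lower in both forebrain regions are shown for this reason. They are the 250 bases before the transcript start (RefSeq, GRCm38.p6), written 5′ to 3′ on the strand of the gene, with capitals marking the letters of an E2F-like or CCAAT motif where one was found. Mdc1 holds both motifs, Smc1a 1 CCAAT and Mre11a 2, read as ATTGG where they lie on the other strand, and Trp53bp2 neither.
Mdc1, chr17:35841248-35841497, plus strand: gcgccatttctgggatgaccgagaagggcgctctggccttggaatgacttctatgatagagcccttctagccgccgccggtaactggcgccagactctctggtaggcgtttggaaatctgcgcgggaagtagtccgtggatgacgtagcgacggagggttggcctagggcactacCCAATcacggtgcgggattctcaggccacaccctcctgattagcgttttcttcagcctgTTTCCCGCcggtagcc
Smc1a, chrX:152016178-152016427, plus strand: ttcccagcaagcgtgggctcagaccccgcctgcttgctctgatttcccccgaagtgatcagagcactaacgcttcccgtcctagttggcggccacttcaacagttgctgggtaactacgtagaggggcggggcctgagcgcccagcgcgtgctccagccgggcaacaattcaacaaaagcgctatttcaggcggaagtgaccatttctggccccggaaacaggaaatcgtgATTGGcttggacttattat
Mre11a, chr9:14784404-14784653, plus strand: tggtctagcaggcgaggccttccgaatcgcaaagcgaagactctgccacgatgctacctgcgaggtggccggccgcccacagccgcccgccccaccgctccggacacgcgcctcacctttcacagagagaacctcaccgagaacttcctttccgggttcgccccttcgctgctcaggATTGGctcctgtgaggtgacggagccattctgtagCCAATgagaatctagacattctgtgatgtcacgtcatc
Trp53bp2, chr1:182408917-182409166, plus strand: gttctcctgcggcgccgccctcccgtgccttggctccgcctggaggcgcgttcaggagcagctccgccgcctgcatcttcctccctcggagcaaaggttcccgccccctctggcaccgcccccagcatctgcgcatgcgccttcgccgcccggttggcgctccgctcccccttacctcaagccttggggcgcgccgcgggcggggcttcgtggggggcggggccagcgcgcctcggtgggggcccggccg
Windows were found for 25 of the 29 genes, 29 windows in all, of which 15 lay outside the annotated gene but for at most 4 bases and the others overlapped it. An E2F-like motif was counted as TTTCCCGC, TTTGGCGC, TTTGCCGC or TTTCGCGC on either strand. It was present in 6 of the 29 windows (20.7%; Bard1, Chek2, Fancg, Mdc1, Nthl1 and Xrcc6, 1 window each) and in 1.86% of all 32851 promoter windows of the same length. For Bard1, Chek2, Fancg and Xrcc6, 169, 183, 250 and 250 of the 250 bases lay inside the annotated gene, so these are not plain upstream sequence. CCAAT on either strand was present in 14 of the 29 windows (48.3%) and in 33.8% of all windows. Of the 6 genes with the E2F-like letters, Bard1, Chek2, Mdc1 and Xrcc6 were lower in both cortex and striatum/thalamus than in cerebellum, as were 18 of all 29 genes. Fancg was lower in striatum/thalamus alone, and Nthl1 in neither. A link between these letters and the regional levels was not tested. The 4 other genes had no window in the table used, and a match describes letters in a window, not binding.

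In sham pups most of the genes were lower in the forebrain than in the cerebellum. Against cerebellum, 19 of 29 were lower in cortex and 0 higher (edgeR quasi-likelihood test with the pup as a block, Benjamini-Hochberg adjusted p under 0.05 over all 740 genes tested), and over all genes 35.5% passed as lower and 31.5% as higher. In striatum/thalamus 22 were lower and 1, Ercc2, was higher, where 32% of all genes passed in each direction. The median log2 fold change of the 29 was -0.44 in cortex and -0.41 in striatum/thalamus, beside 0.01 and 0.05 over all genes tested. Both comparisons use the same 4 sham cerebellum libraries. Of the genes lower in cortex, 18 were also lower in striatum/thalamus, which is 94.7% of the cortex list and 81.8% of the striatum/thalamus list. The same overlap was not counted over all genes, so these shares have no background beside them. Hus1 was lower in cortex alone at the threshold, Apex1, Fancg, Parp1 and Rad50 in striatum/thalamus alone, and Prkdc, Nbn, Rnf8, Rad9a, Nthl1 and Ercc2 in neither.

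**Figure D1:**
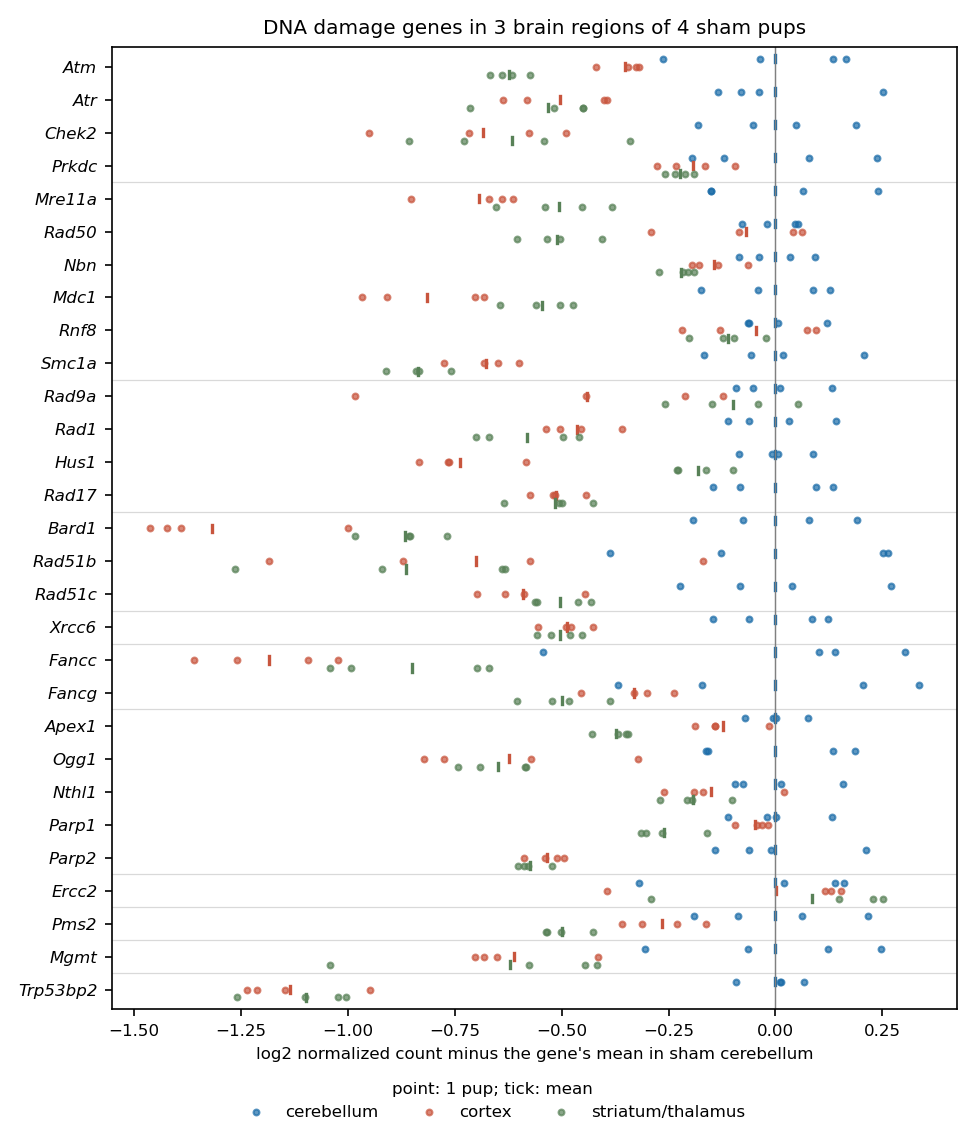
Levels of the 29 genes in the 3 regions of the 4 sham pups, as log2 normalized count minus the mean of the gene in sham cerebellum; each point is 1 pup, each tick a regional mean, and grey lines separate the roles used in the text. Bard1, Fancc, Trp53bp2 and Smc1a lie well to the left of the cerebellum in both forebrain regions, while Ercc2, Rnf8 and Nbn stay near 0.

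Among the kinases that signal damage, Atm, Atr and Chek2 were lower in both forebrain regions and Prkdc in neither. Atm, the kinase activated by double-strand breaks, had 635, 623, 553 and 472 counts in sham cerebellum, 454, 452, 424 and 447 in cortex and 357, 364, 381 and 370.2 in striatum/thalamus. Its lowest cerebellar value stayed above every cortical and striatal value, with log2 fold changes of -0.29 ± 0.08 (SE, adjusted p = 0.00702) in cortex and -0.52 ± 0.08 (SE, adjusted p = 0.000116) in striatum/thalamus, the cortical call being lost without pup 3. Atr, which answers to single-stranded DNA at stalled forks, went from 489 ± 61.3 (mean ± SD, n = 4) in cerebellum to 344 ± 29.5 in cortex and 337 ± 28.3 in striatum/thalamus, at -0.44 ± 0.08 (SE, adjusted p = 0.000309) and -0.43 ± 0.08 (SE, adjusted p = 0.000409). Chek2, the checkpoint kinase downstream of Atm, was at 65.3% of its cerebellar level in cortex (adjusted p = 0.000356) and 70.3% in striatum/thalamus (adjusted p = 0.00142). Prkdc, the catalytic subunit of the kinase of end joining, differed by -0.13 ± 0.08 (SE, adjusted p = 0.173) in cortex and -0.12 ± 0.08 (SE, adjusted p = 0.197) in striatum/thalamus, and its sham values overlapped in all 3 regions.

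The 3 genes of the MRN complex, which binds broken ends, did not share 1 regional pattern. Mre11a, its nuclease, had 627, 555, 478 and 478 counts in cerebellum, 347, 334, 341 and 294 in cortex and 388, 338, 366 and 407 in striatum/thalamus. The cerebellar pups were all above the pups of both other regions (-0.63 ± 0.09 SE, adjusted p = 3.99e-05 in cortex and -0.40 ± 0.09 SE, adjusted p = 0.00139 in striatum/thalamus). Rad50, the ATPase that tethers the ends, had 265, 266, 243 and 253 in cerebellum, 268, 242, 209.6 and 264 in cortex and 194, 181, 169 and 177 in striatum/thalamus. Cortex overlapped cerebellum (0.00 ± 0.08 SE, adjusted p = 0.982), whereas striatum/thalamus lay below both (-0.40 ± 0.08 SE, adjusted p = 0.000659 against cerebellum, and cortex over striatum/thalamus 0.41 ± 0.08 SE, adjusted p = 0.00135). Nbn, the subunit that brings in Atm, was the steadiest of the 3 at 313 ± 17.1 counts in cerebellum, 284 ± 11.6 in cortex and 268 ± 6.59 in striatum/thalamus, and passed in no comparison of regions.

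Of the genes that mark the chromatin around a break, the scaffold Mdc1 and the cohesin subunit Smc1a, which Atm phosphorylates, were lower in the forebrain, and the ubiquitin ligase Rnf8 was not. Mdc1 had 494, 482, 440.0 and 402 counts in cerebellum, 283, 279, 232 and 241 in cortex and 307, 289.9, 326 and 319 in striatum/thalamus, 3 sets of values that did not overlap. Its log2 fold changes against cerebellum were -0.75 ± 0.09 (SE, adjusted p = 7.5e-06) in cortex and -0.44 ± 0.08 (SE, adjusted p = 0.000568) in striatum/thalamus. Smc1a, which lies on the X chromosome, had 1929, 1689, 1486 and 1605 in cerebellum, 976, 1065, 1102 and 1040.3 in cortex and 987, 932, 937 and 888 in striatum/thalamus. No forebrain value reached the cerebellum (-0.61 ± 0.07 SE, adjusted p = 7.71e-06 in cortex and -0.73 ± 0.07 SE, adjusted p = 1.95e-06 in striatum/thalamus). Rnf8 stood at 636 ± 39.1, 619 ± 65.3 and 589 ± 30.3, with 95% intervals of the log2 fold change of -0.14 to 0.19 in cortex and -0.17 to 0.16 in striatum/thalamus.

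The 9-1-1 clamp (Rad9a, Rad1 and Hus1), which Rad17 loads at stalled forks to activate Atr, did not move as a unit either. Hus1 had 639, 604, 599 and 567 counts in cerebellum, 537, 561, 513 and 513 in striatum/thalamus and 354, 401, 354 and 337 in cortex. The cortical pups were far below both other regions, at -0.67 ± 0.06 (SE, adjusted p = 1.28e-06) against cerebellum and -0.59 ± 0.06 (SE, adjusted p = 1.01e-05) against striatum/thalamus, whereas striatum/thalamus differed from cerebellum by -0.07 ± 0.06 (SE, adjusted p = 0.304). Rad1 was at 76.0% of cerebellum in cortex and 72.0% in striatum/thalamus (adjusted p = 0.000255 and 7.09e-05). Rad17 was at 73.3% and 75.1% (adjusted p = 0.000302 and 0.000621). Rad9a passed in neither (-0.35 ± 0.16 SE, adjusted p = 0.07 and 0.01 ± 0.15 SE, adjusted p = 0.972), and its cortical values of 121, 66.4, 96.7 and 113 were spread by 1 low pup, pup 3.

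Bard1, a ubiquitin ligase subunit of homologous recombination, had the largest log2 fold change of the 29 in cortex against cerebellum. It had 157, 169.8, 141 and 130.0 counts in sham cerebellum, 54.0, 74.3, 55.5 and 56.7 in cortex and 82.1, 87.3, 75.2 and 82.3 in striatum/thalamus. The 3 regions did not overlap, and Bard1 differed by -1.24 ± 0.10 (SE, adjusted p = 5.18e-07) in cortex against cerebellum, by -0.76 ± 0.10 (SE, adjusted p = 2.51e-05) in striatum/thalamus against cerebellum and by -0.48 ± 0.11 (SE, adjusted p = 0.00429) in cortex against striatum/thalamus. The recombinase paralogs Rad51c and Rad51b were lower in both forebrain regions as well: Rad51c had 190.0, 149, 162 and 135 counts in cerebellum and was at 69.4% in cortex and 75.6% in striatum/thalamus (adjusted p = 0.000537 and 0.00344). Rad51b, near the background, had 56.7, 56.3, 43.3 and 36.2 counts in cerebellum, 31.8, 20.8, 25.8 and 42.0 in cortex and 25.0, 19.7, 30.5 and 30.4 in striatum/thalamus (-0.61 ± 0.23 SE, adjusted p = 0.0313 and -0.77 ± 0.23 SE, adjusted p = 0.0114). Its cortical values overlapped those of cerebellum, and with the background subtracted Rad51b was too low to be tested. Its cortical call was also lost without pup 2, 3 or 6, and that in striatum/thalamus without pup 2 or 3. Xrcc6, the Ku subunit that holds ends for joining, had 487, 474, 404 and 428 in cerebellum and was at 74.7% in cortex and 75.9% in striatum/thalamus (adjusted p = 9.64e-05 and 0.00016).

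The 2 genes of the Fanconi pathway, which unhooks crosslinks between DNA strands, differed in size. Fancc had 257, 143, 229.8 and 224 counts in cerebellum, 103, 81.3, 87.1 and 97.8 in cortex and 129, 101, 131 and 105 in striatum/thalamus. Pup 3 was the lowest of the 4 in all 3 regions, and even so its cerebellar value exceeded every forebrain value of the arm (-1.13 ± 0.12 SE, adjusted p = 3.22e-06 and -0.75 ± 0.11 SE, adjusted p = 8.18e-05). Fancg, another subunit of the core complex, spread widely in cerebellum at 200.4, 183, 141 and 123, and its difference was -0.28 ± 0.14 (SE, adjusted p = 0.0913) in cortex and -0.41 ± 0.14 (SE, adjusted p = 0.02) in striatum/thalamus, a call lost under scaling on the reference genes and without pup 2 or 3.

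Of the 5 genes of base excision and single-strand break repair, Ogg1 and Parp2 were lower in both forebrain regions, Parp1 and Apex1 in striatum/thalamus, and Nthl1 in neither. Ogg1, the glycosylase that removes oxidized guanine, had 129.5, 125, 102 and 102 counts in cerebellum, 91.0, 64.4, 76.6 and 66.5 in cortex and 75.9, 76.0, 68.1 and 70.5 in striatum/thalamus, with every forebrain value below the cerebellum (-0.55 ± 0.11 SE, adjusted p = 0.000731 and -0.55 ± 0.11 SE, adjusted p = 0.000791). Parp2, a polymerase of the same route, had 1162, 996, 909 and 961 in cerebellum, 711, 704, 690.1 and 667 in cortex and 667, 672, 660.4 and 697 in striatum/thalamus, again without overlap (-0.47 ± 0.06 SE, adjusted p = 2.8e-05 and -0.47 ± 0.06 SE, adjusted p = 3.3e-05). Its sister polymerase Parp1, the main sensor of single-strand breaks, had 1366, 1247, 1229 and 1154 in cerebellum, 1210.0, 1167, 1219 and 1231 in cortex and 1011, 1037, 1116 and 1003 in striatum/thalamus, so that cortex overlapped cerebellum (0.02 ± 0.06 SE, adjusted p = 0.78) and striatum/thalamus lay below it (-0.15 ± 0.06 SE, adjusted p = 0.0314). The Parp1 call was lost under scaling on the reference genes, with the background subtracted and without pup 2 or 3. The endonuclease Apex1, which cuts the site a glycosylase leaves, followed the order of Parp1, at -0.05 ± 0.06 (SE, adjusted p = 0.423) in cortex and -0.27 ± 0.06 (SE, adjusted p = 0.00128) in striatum/thalamus. Nthl1, the glycosylase for oxidized pyrimidines, had means of 81.6 ± 6.63, 73.6 ± 6.29 and 71.3 ± 3.45 and passed in neither (95% intervals -0.29 to 0.13 and -0.30 to 0.12).

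The last 4 genes stand for separate routes. Ercc2, the helicase of the transcription factor TFIIH that opens DNA in nucleotide excision repair, had 718, 729.6, 523 and 662 counts in cerebellum, 707, 715, 497 and 725 in cortex and 724, 765, 533 and 777 in striatum/thalamus. It was the only gene of the 29 that passed as higher in the forebrain (0.19 ± 0.06 SE, adjusted p = 0.0117), and the regional sets overlapped. The call was lost without the pup block, which compares each pup with itself (adjusted p = 0.252), and without pup 8. Pms2, of mismatch repair, had 1134, 1019, 919 and 856 in cerebellum, 832, 787, 762 and 873 in cortex and 673, 689.7, 675 and 727 in striatum/thalamus, with cortex overlapping cerebellum (-0.20 ± 0.08 SE, adjusted p = 0.0352 and -0.40 ± 0.08 SE, adjusted p = 0.000641). The cortical call was lost with the background subtracted and without pup 2, 3 or 6. Mgmt, which takes alkyl groups off guanine, had 45.4, 61.0, 53.6 and 66.5 in cerebellum, 34.9, 35.7, 34.5 and 42.0 in cortex and 42.0, 27.2, 37.6 and 41.1 in striatum/thalamus, partly at background (-0.55 ± 0.16 SE, adjusted p = 0.00875 and -0.50 ± 0.16 SE, adjusted p = 0.0145), and the call in striatum/thalamus was lost without pup 3 or 8. Trp53bp2 binds p53 and belongs to the ASPP family of apoptosis regulators, and despite its name is no repair enzyme. It had 632, 658, 589 and 633 counts in cerebellum, 284, 267, 325 and 271 in cortex and 309, 293, 313 and 262 in striatum/thalamus. No forebrain value came near the cerebellum, at -1.07 ± 0.08 (SE, adjusted p = 1.27e-07) and -0.99 ± 0.08 (SE, adjusted p = 3.21e-07).

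Cortex and striatum/thalamus differed from each other in fewer of the genes. Higher in sham cortex were Rad50 (0.41 ± 0.08 SE, adjusted p = 0.00135), Atm (0.23 ± 0.08 SE, adjusted p = 0.0402), Apex1 (0.21 ± 0.06 SE, adjusted p = 0.0104) and Parp1 (0.17 ± 0.06 SE, adjusted p = 0.0285). Lower were Hus1, Bard1, Mdc1 (-0.31 ± 0.09 SE, adjusted p = 0.0139) and Fancc (-0.37 ± 0.12 SE, adjusted p = 0.0305). These 8 of 29 compare with 18.1% of all genes higher and 22.3% lower, and the median over the 29 was -0.01, the same as over all genes to 2 decimals. Rad50, Hus1 and Bard1 passed under all 11 alternative settings. With library sizes scaled on the reference genes the split changed from 4 higher and 4 lower to 1 higher and 7 lower, and leaving out any 1 sham pup left 4 to 6 calls, with 5 without pup 3 and 4 without pup 6.

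Genes outside the list that mark division moved with the same regions. Of 20 cell cycle genes on the panel, 18 were lower in cortex and 18 in striatum/thalamus than in cerebellum, with median log2 fold changes of -1.30 and -1.35. Top2a, the topoisomerase of dividing cells, differed by -2.40 ± 0.07 (SE, adjusted p = 1.17e-10) and -2.14 ± 0.07 (SE, adjusted p = 4.5e-10). Of 16 further damage response genes, 14 were lower in cortex and 13 in striatum/thalamus, such as Fen1, the flap endonuclease of replication, at -0.90 ± 0.08 (SE, adjusted p = 6.12e-07) and -1.04 ± 0.08 (SE, adjusted p = 2.36e-07). The 2 lists share 2 genes, and the chromatin genes Ezh1 and Suv39h1 are among the cell cycle list. The summed level of the cell cycle genes was 12437 to 15879 in sham cerebellum, 5990.5 to 6399 in sham cortex and 5937 to 6255 in sham striatum/thalamus, and that of the 29 genes 12798 to 15178, 10153 to 10393 and 9843 to 10008. Markers of other cells differed between the regions as well. Oligodendrocyte markers were lower in cortex (7 of 7, median -1.95) and in striatum/thalamus (6 of 7, median -0.87, with 1 higher), with sums of 51644 to 73679 in sham cerebellum, 13067 to 18621 in cortex and 22815 to 38602 in striatum/thalamus. Astrocyte markers were lower in both (4 of 4, medians -0.89 and -0.70; sums 20310.1 to 26036, 12321 to 14039.9 and 10936 to 12228), and microglial markers higher in both (11 of 11, medians 0.98 and 0.58; sums 3066 to 4215, 6706 to 7379 and 5088 to 5601). Neuronal markers were mostly higher, 7 of 8 in cortex (median 0.89, with 1 lower) and 5 of 8 in striatum/thalamus (median 0.70, with 2 lower). Their sums were 40905 to 46138 in sham cerebellum, 73063 to 77519.5 in cortex and 56317 to 60618 in striatum/thalamus. No marker of these lists was at 0 in any library. The part of dividing cells and of these cell types in the regional difference of the 29 genes was not tested.

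After HIBI no gene of the list passed the test in any region. Over all genes tested in each region 0.42% passed in cerebellum (714 tested), 1.5% in cortex (731) and 2.87% in striatum/thalamus (732), and leaving out 1 pup moved these from 3, 11 and 21 genes to 0 to 9, 3 to 22 and 2 to 64. The lowest were without pup 1 in cerebellum and pup 8 in cortex and striatum/thalamus, and the highest without pups 7, 1 and 4. The smallest adjusted p among the 29 was 0.232 in cerebellum, 0.42 in cortex and 0.231 in striatum/thalamus. The median standard error of a gene of the list was 0.12 on the log2 scale in cerebellum, 0.10 in cortex and 0.09 in striatum/thalamus. With 4 pups an arm, even the largest fitted changes of the 29 did not pass, -0.36 for Rad50 in cerebellum and for Nthl1 in cortex. A change of that size or smaller in 1 gene could thus go uncalled.

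**Figure D2:**
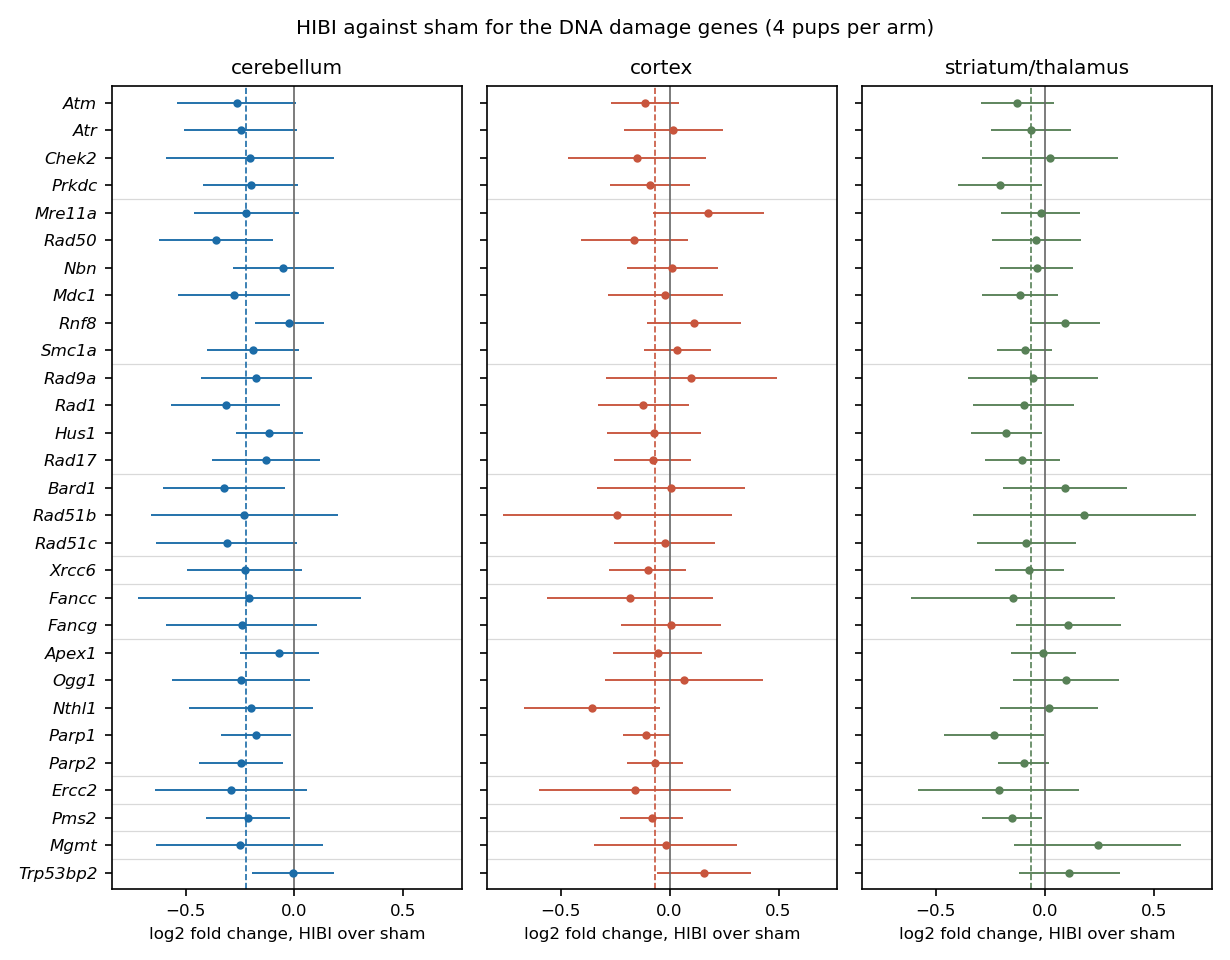
Log2 fold change of HIBI over sham for each of the 29 genes with its 95% interval from the edgeR fit (4 pups per arm), in cerebellum, cortex and striatum/thalamus; the dashed line is the median of the 29. In cerebellum every point lies left of 0 around a median of -0.22, while in cortex and striatum/thalamus the points spread on both sides of medians of -0.07 and -0.06.

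In the cerebellum all 29 genes had a lower fitted level after HIBI, where 50% of all genes did. Their median log2 fold change was -0.22, beside 0.00 over all genes tested, with values from -0.36 (Rad50) to -0.01 (Trp53bp2). At an unadjusted p under 0.05 were 7 of the 29 (24.1%), beside 16.8% of all genes, a count that ran from 1 without sham pup 2 to 12 without HIBI pup 7, and the arms did not overlap for 1 gene, Rad50, beside 7.14% of all genes. The counts are given as a description, since genes of 1 library rise and fall together. With scaling on the reference genes, which moved the median of all genes by 0.12, 25 of the 29 were lower and their median was -0.11.

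Rad50 had 184, 162, 211 and 238 counts in the cerebellum of HIBI pups and 265, 266, 243 and 253 in sham pups. Every HIBI value was below every sham value (-0.36 ± 0.12 SE, adjusted p = 0.232, 95% interval -0.62 to -0.10). Parp2 had 766, 822, 792 and 987 in HIBI and 1162, 996, 909 and 961 in sham pups, and pup 7 of the HIBI arm lay within the sham range (-0.25 ± 0.09 SE, adjusted p = 0.246). In 1 fit of all 24 libraries, which shares its estimate of spread among the regions, Rad50 and Parp2 passed with adjusted p = 0.045 and 0.044. That fit had no pup block, so it treated the libraries of 1 pup as independent, and it called more of all genes as well.
Rad1 had 301, 277, 283 and 381 against 428, 397, 372 and 359.7, and again pup 7 alone reached the sham values (-0.32 ± 0.11 SE, adjusted p = 0.246). Bard1 had 103, 107, 121 and 143 against 157, 169.8, 141 and 130.0, at -0.32 ± 0.13 (SE, adjusted p = 0.254). Pup 7 was the highest HIBI pup again in Rad51c, with 106, 112, 126 and 163 against 190.0, 149, 162 and 135 (-0.31 ± 0.14 SE, adjusted p = 0.304), and in Ercc2, with 425, 557, 454 and 703 against 718, 729.6, 523 and 662 (-0.29 ± 0.16 SE, adjusted p = 0.344). Mdc1 (-0.28 ± 0.12 SE, adjusted p = 0.254), Pms2 (-0.21 ± 0.09 SE, adjusted p = 0.254) and Parp1 (-0.18 ± 0.07 SE, adjusted p = 0.254) were the other 3 genes at an unadjusted p under 0.05. The smallest differences were those of Trp53bp2 (-0.01 ± 0.08), Rnf8 (-0.02 ± 0.07), Nbn (-0.05 ± 0.10) and Apex1 (-0.07 ± 0.08), and the remaining 16 genes lay between the fold changes of Atm (-0.27) and Hus1 (-0.11).

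The lower cerebellar levels were carried by 3 of the 4 HIBI pups. The mean log2 level of the 29 genes, set against the sham mean, was -0.38 in pup 1, -0.26 in pup 4 and -0.25 in pup 5, and 0.01 in pup 7. The sham pups had 0.14, 0.04, -0.08 and -0.10. Pup 1 was below the lowest sham value for 28 of the 29 genes, pup 5 for 20, pup 4 for 18 and pup 7 for 2. Without pup 7 the median fold change was -0.28 and without sham pup 2 it was -0.15, the extremes of leaving out 1 pup.
Division markers followed the same pups. The cell cycle genes, 20 of 20 of them lower in HIBI cerebellum with a median of -0.25, had mean log2 levels of -0.57, -0.30, -0.36 and 0.10 in the HIBI pups and 0.21, 0.07, -0.14 and -0.14 in the sham pups. All 16 further damage response genes were lower too, with a median of -0.17. The summed level of 11 microglial markers, 10 of them higher in HIBI, ran from 4055 to 4980 in HIBI pups and from 3066 to 4215 in sham pups, with no marker at 0. All 7 oligodendrocyte markers were higher as well. Of 4 astrocyte markers 3 were lower and 1 higher, with sums of 17216 to 21189 in HIBI and 20310 to 26036 in sham pups. Of 8 neuronal markers 5 were higher and 3 lower. Slc17a7, the transporter of granule cells and other excitatory neurons, had 1408, 2248, 1751 and 1949 counts in the HIBI pups and 3378, 2474, 2150.3 and 2917 in the sham pups. Slc17a6 had 6266, 5065, 5491 and 4933 in HIBI and 2703, 3541, 5558 and 4653 in sham pups, and Eomes 191, 305, 215 and 522 in HIBI and 841, 539, 329.7 and 665 in sham pups. None of these marker differences passed, and their part in the lower levels of the 29 genes was not tested.

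**Figure D3:**
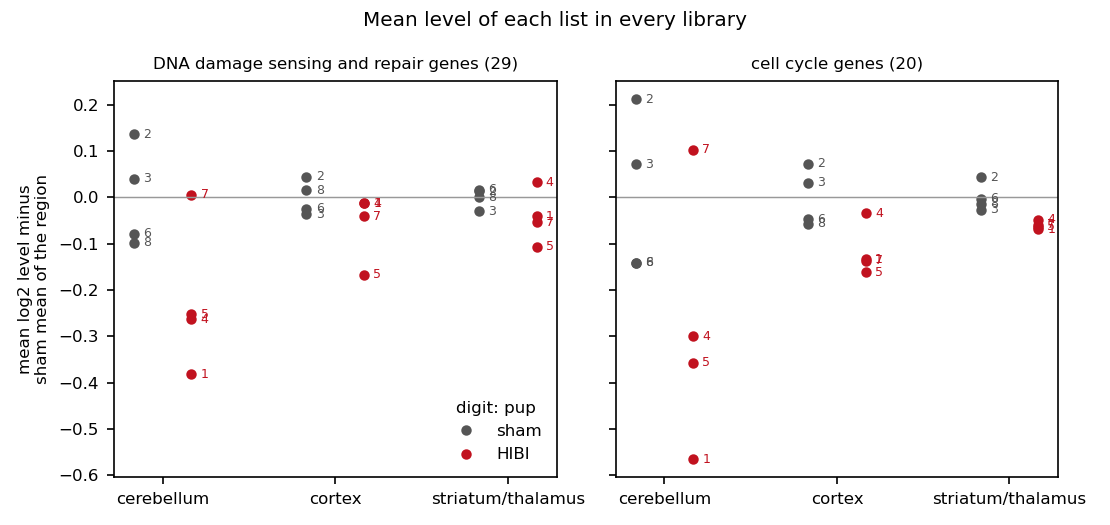
Mean log2 level of the 29 DNA damage genes (left) and of the 20 cell cycle genes (right) in each library, minus the mean of the sham libraries of the region; each point is 1 library and its digit the pup. In cerebellum HIBI pups 1, 4 and 5 lie below all sham pups in both panels, and pup 7 lies at 0.01 and 0.10.

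In the cortex, on the side of the closed artery, 10 of the 29 genes were higher and 19 lower after HIBI, and 52.8% of all genes were lower. Their median of -0.07 compares with -0.01 over all genes, and under scaling on the reference genes it was 0.03 with 10 genes lower. At an unadjusted p under 0.05 was 1 gene, Nthl1, beside 9.3% of all genes, with 0 to 2 on leaving out 1 pup, and the arms were apart for 2, Nthl1 and Parp1, beside 6.02%. Nthl1 had 59.8, 66.4, 57.3 and 45.1 counts in HIBI and 82.6, 72.4, 68.0 and 71.4 in sham cortex, with every HIBI value below every sham value (-0.36 ± 0.14 SE, adjusted p = 0.42, 95% interval -0.67 to -0.04). Parp1 had 1144, 1131, 1063 and 1128 in HIBI and 1210.0, 1167, 1219 and 1231 in sham cortex, a narrow shift without overlap (-0.11 ± 0.05 SE, adjusted p = 0.525). Trp53bp2 had 347, 285, 318 and 324 against 284, 267, 325 and 271, with overlap (0.16 ± 0.10 SE, adjusted p = 0.734). Atm had 404, 425, 388 and 421 against 454, 452, 424 and 447, where HIBI pup 4 alone reached the lowest sham pup (-0.11 ± 0.07 SE, adjusted p = 0.734).
Mre11a had the largest value above 0, 0.18 ± 0.12 (SE, adjusted p = 0.74), with 449, 371, 309.6 and 354 in HIBI and 347, 334, 341 and 294 in sham pups and a spread carried by pup 1. Ogg1, whose product removes oxidized guanine, gave 0.07 ± 0.16 (SE, adjusted p = 0.902) with a 95% interval of -0.29 to 0.43, and Apex1 gave -0.06 ± 0.09 (SE, adjusted p = 0.862) with -0.26 to 0.15. Parp2 (-0.07 ± 0.06), Xrcc6 (-0.10 ± 0.08), Prkdc (-0.09 ± 0.08) and Chek2 (-0.15 ± 0.14) were lower without passing, while Rnf8 (0.11 ± 0.10) and Rad9a (0.10 ± 0.18) were higher without passing. The kinase Atr (0.02 ± 0.10), Nbn (0.01 ± 0.09), Bard1 (0.01 ± 0.15), Fancg (0.01 ± 0.10) and Mgmt (-0.02 ± 0.15) had fitted differences within 0.02 of 0. The other 11 lay between Rad51b (-0.24) and Smc1a (0.03).

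In striatum/thalamus 9 of the 29 genes were higher and 20 lower, beside 48.8% of all genes lower, with a median of -0.06 and an all-gene median of 0.00. At an unadjusted p under 0.05 were 4 of them (Pms2, Hus1, Prkdc and Parp1), beside 18.2% of all genes, a count that ran from 0 without pup 2 to 4 on leaving out 1 pup, and the arms were apart for 2 (Hus1 and Parp2), beside 9.43%. Pms2 had 677, 619, 600.1 and 598 in HIBI and 673, 689.7, 675 and 727 in sham pups, where HIBI pup 1 overlapped the sham range (-0.15 ± 0.06 SE, adjusted p = 0.231). Hus1 had 459, 427, 511 and 485 against 537, 561, 513 and 513, without overlap (-0.18 ± 0.07 SE, adjusted p = 0.234). Prkdc had 421, 465, 389 and 352 against 472, 458, 479.6 and 465, and its HIBI pups were spread far wider than its sham pups (-0.21 ± 0.09 SE, adjusted p = 0.246).
Parp1 had 851, 1055, 923 and 719.8 against 1011, 1037, 1116 and 1003, with pup 7 the lowest and pup 4 inside the sham range (-0.23 ± 0.10 SE, adjusted p = 0.265). Without HIBI pups 4 and 5, whose libraries were rich in Ttr, which leaves 2 HIBI pups against 4 sham pups, Parp1 was at -0.41 and passed (adjusted p = 0.0212). Leaving out pup 4 alone gave -0.33 and the same call, in a fit where 64 of all genes passed, beside 21 in the main fit. Parp2, its sister polymerase, had 645, 648, 617 and 616 against 667, 672, 660.4 and 697, all HIBI values below the sham values (-0.10 ± 0.05 SE, adjusted p = 0.361).
The highest fitted values were those of Mgmt (0.24 ± 0.17 SE, adjusted p = 0.486) and Rad51b (0.18 ± 0.23 SE, adjusted p = 0.703), both near the background, followed by Trp53bp2 (0.11 ± 0.10), Fancg (0.11 ± 0.11), Ogg1 (0.10 ± 0.11), Rnf8 (0.09 ± 0.07) and Bard1 (0.09 ± 0.13), none of which passed. The other 17 lay between Ercc2 (-0.21) and Chek2 (0.02). Of the region markers, Slc17a6 was 8038 to 10404 in HIBI and 11371 to 13843 in sham striatum/thalamus and Eomes 60.6 to 93.0 and 17.8 to 38.4, both of which passed (-0.49 ± 0.09 SE, adjusted p = 0.0161 and 1.23 ± 0.23 SE, adjusted p = 0.0168). Every sham value of Eomes here lay below the detection limit of its library, so its fold change is taken against background. All 7 oligodendrocyte markers were lower without passing. The part of these markers in the differences of the listed genes was not tested.

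**Figure D4:**
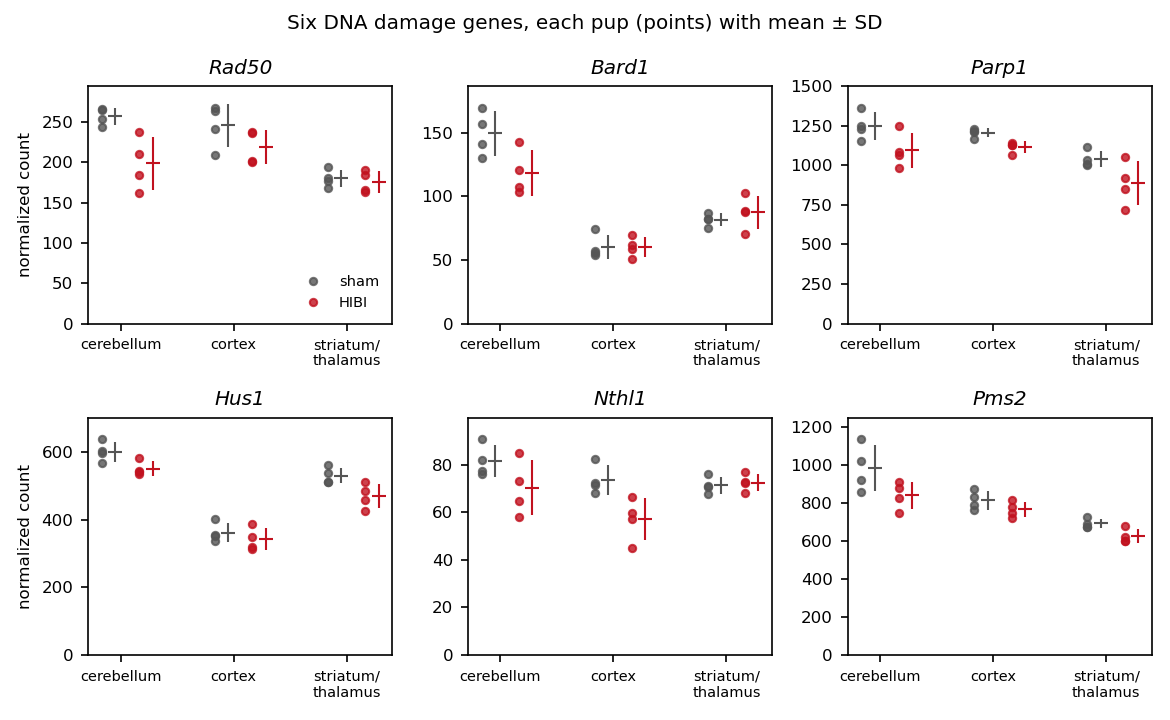
Normalized counts of 6 DNA damage genes in every pup by region and arm (points), with mean and SD of the 4 pups beside them; each axis starts at 0. Rad50 separates the arms in cerebellum, Nthl1 and Parp1 in cortex and Hus1 in striatum/thalamus, and for Bard1 the step between cerebellum and forebrain exceeds any difference between arms.

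Whether the response to HIBI differed between regions was tested as an interaction with each pup as a block. No gene of the list passed in any of the 3 tests, and over all 745 genes 0% passed for cortex against cerebellum, 0.671% for striatum/thalamus against cerebellum and 0% for cortex against striatum/thalamus. The first 2 tests share the cerebellum libraries. The difference of cortex from cerebellum was above 0 for 28 of the 29 genes, beside 403 of all 745. For the 29, all lower in cerebellum, this means a less negative or a positive response in cortex. The median difference was 0.16 beside 0.02 over all genes. At an unadjusted p under 0.05 were 2 of the 29, beside 78 of all 745. They were Mre11a (0.40 ± 0.14 SE, adjusted p = 0.337) and Smc1a (0.23 ± 0.10 SE, adjusted p = 0.458). Against cerebellum, striatum/thalamus had a difference above 0 for 26 of the 29, beside 424 of all 745, with a median of 0.16 beside 0.05. Bard1 (0.42 ± 0.17 SE, adjusted p = 0.285), Rad50 (0.34 ± 0.15 SE, adjusted p = 0.323) and Mgmt (0.50 ± 0.22 SE, adjusted p = 0.34) were at an unadjusted p under 0.05. These 3 of 29 compare with 100 of all 745. Between cortex and striatum/thalamus the largest difference by p was that of Nthl1 (-0.39 ± 0.19 SE, adjusted p = 0.782), which was at -0.36 in cortex and 0.02 in striatum/thalamus. With scaling on the reference genes the median difference of striatum/thalamus against cerebellum was 0.05, and it was 0.07 without pup 1 and 0.26 without pup 7.

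None of the 12 p53 response genes on the panel, which damage signalling can induce, passed in any region. In cerebellum 5 of them were higher and 7 lower, in cortex 5 and 7, and in striatum/thalamus 7 and 5. At an unadjusted p under 0.05 were 3 in cerebellum (1 higher, 2 lower), beside 16.8% of all genes. In cortex 2 were, both higher, beside 9.3%. In striatum/thalamus 4 were, all higher, beside 18.2%, and the largest log2 fold change of the 12 there was 0.68. Cdkn1a, the cell cycle inhibitor that p53 induces, differed by 0.35 ± 0.13 (SE, adjusted p = 0.254) in cerebellum, 0.23 ± 0.06 (SE, adjusted p = 0.13) in cortex and -0.01 ± 0.09 (SE, adjusted p = 0.972) in striatum/thalamus. The death receptor gene Tnfrsf10b came nearest to the threshold, at 0.80 ± 0.18 (SE, adjusted p = 0.0555) in cortex.

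Ercc2 and Fancc were each lowest in the same 3 pups in all 3 regions, a pattern singled out after the values were seen. Ercc2 was lowest in pups 1, 5 and 6 everywhere: these had 425, 454 and 523 counts in cerebellum, 447, 486 and 497 in cortex and 529, 479 and 533 in striatum/thalamus. The other 5 pups had 557 to 729.6, 652 to 773 and 670.3 to 777. Pups 1 and 5 were of the HIBI arm and pup 6 of the sham arm, so the split crosses the arms. Fancc was lowest in pups 1, 3 and 5 in all 3 regions, with 129, 143 and 151 in cerebellum beside 189 to 267 in the other pups, and pup 3 was of the sham arm. The next pup exceeded these by a ratio of 1.25 in cerebellum, but only 1.07 in cortex and 1.03 in striatum/thalamus. Of the 745 genes, 10 had the same 3 lowest pups in all 3 regions, and Ercc2 and Fancc were the members of the list among them. In cortex their log2 fold changes after HIBI were -0.16 ± 0.19 for Ercc2 and -0.18 ± 0.17 for Fancc, beside a median standard error of 0.10 over the list.

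**Figure D5:**
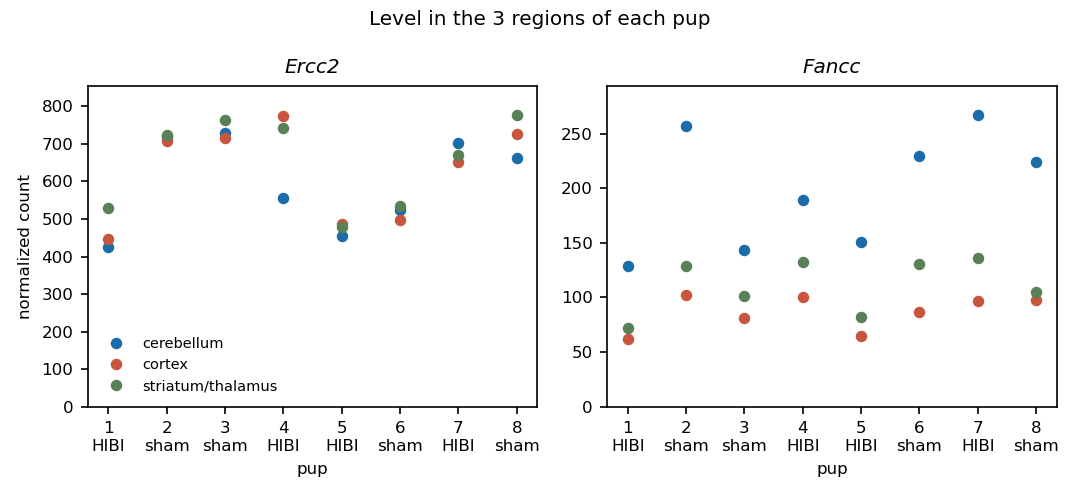
Normalized counts of Ercc2 and Fancc in cerebellum, cortex and striatum/thalamus of each of the 8 pups, with the arm under the pup number; axes start at 0. Ercc2 is lowest in pups 1, 5 and 6 and Fancc in pups 1, 3 and 5 in all 3 regions, across both arms. For Fancc the next pup is close in cortex and striatum/thalamus.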

How the data were processed

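RNA of the right cerebellum, cortex and striatum/thalamus of 8 pups was counted on the nCounter Mouse Neuroinflammation panel. The deposited counts, raw counts of barcodes per probe, were analysed (855129 to 1135000 counts per library). The authors' deposited signal values, group means normalized in nSolver (its settings are not given in the sources used here), were set against means of the counts only: the ratio of arms was within 1% for 29, 28 and 28 of the 29 genes in cerebellum, cortex and striatum/thalamus. Their SD, fold and p-value columns hold the authors' own comparisons and were not used.

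Genes with at least 20 counts in at least 4 of the libraries compared were fitted with the quasi-likelihood test of edgeR 4.0.16 (R 4.3.3, TMM scaling, robust estimation), HIBI against sham within each region, and sham regions and interactions with the pup as a block, with Benjamini-Hochberg adjustment over all genes at 0.05. The labels number the subjects, and 24 pairs of libraries of 1 pup correlated in their deviations at -0.06 to 0.57 (median 0.21, 18 over 0.1), against a median of -0.05 for different pups. Replicates were separate pups (36 pairs, r from 0.974 to 0.994, chi-square per degree of freedom at least 5.13). The labels name no cartridge or lane, so no batch was fitted. The fits were checked on simulated data.

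Genes were named by a rule: those passing, at most 6 per direction by fold change, or the 4 smallest p where under 3 passed, and up to 4 of each other list; other genes of the list were added afterwards to account for each, and some genes of the other lists are not reported here. The members and lists were chosen with earlier results of these data known. Alternatives were DESeq2 1.42.0, limma 3.58.1 (voom), reference-gene scaling, no filter, subtracted background, 1 fit of all libraries, no Ttr-rich libraries, no block and leaving out each pup. Promoter windows came from RefSeq (GRCm38.p6).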

Additional observations from a re-analysis of the deposited data

Results flagged for a closer look

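In 5 of 174 groups of 4 pups 1 pup stood far from the other 3, and chance marks about 1 group in 20. Hus1 was high in the cerebellum of HIBI pup 7, at 583 normalized counts beside 536 to 544 in the other 3 pups of the arm. Apex1 was high in the same library, at 720.4 beside 581 to 595. In sham cortex, Bard1 was high in pup 3, at 74.3 beside 54.0 to 56.7, and Mgmt was high in pup 8, at 42.0 beside 34.5 to 35.7. Ercc2 was low in the cortex of sham pup 6, at 497 beside 707 to 725.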

How the results depend on the processing

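No called value among these results changed direction under any alternative run. Scaling on the reference genes moved the median of the 29 genes to -0.11 in cerebellum and 0.027 in cortex after HIBI (10 genes lower in cortex), to -0.31 for sham striatum/thalamus against cerebellum, to -0.11 for sham cortex against striatum/thalamus, and to 0.053 and 0.10 for the interactions of striatum/thalamus with cerebellum and cortex with striatum/thalamus. It shifted the median of all genes by 0.12, 0.09, 0.10, -0.10, -0.11 and 0.09 in the same order. Over all genes it split striatum/thalamus against cerebellum into 282 higher and 204 lower, and cortex against striatum/thalamus into 89 and 223. After HIBI 2 of the 29 genes passed in cerebellum in 1 fit of all 24 libraries, and 1 in striatum/thalamus without the Ttr-rich libraries. Both settings also called more of all genes than the main fit, in the counts given below, so these calls are not particular to the 29. The cause was not tested.

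Leaving out 1 pup gave medians of -0.28 to -0.15 in cerebellum, -0.07 to -0.04 in cortex and -0.07 to -0.05 in striatum/thalamus after HIBI, with 27 to 29, 17 to 21 and 18 to 21 genes lower and 0, 0 and 0 to 1 passing. In sham pups the medians were -0.46 to -0.39, -0.47 to -0.34 and -0.03 to 0.02, with 16 to 20, 19 to 23 and 4 to 6 genes passing for cortex against cerebellum, striatum/thalamus against cerebellum and cortex against striatum/thalamus. The interactions had medians of 0.11 to 0.23, 0.070 to 0.26 and 0.00 to 0.03.

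Without the pup block, 469 and 287 of all genes passed for sham striatum/thalamus against cerebellum and cortex against striatum/thalamus, beside 474 and 299 with the pairing; Ercc2 in striatum/thalamus and Fancc in cortex against striatum/thalamus were lost. Over all genes the calls after HIBI were 3, 11 and 21 in cerebellum, cortex and striatum/thalamus, beside 15, 23 and 48 in DESeq2, 47 and 22 in 1 fit of all libraries (cerebellum and cortex), 5 and 21 with reference-gene scaling, and 68 without the Ttr-rich libraries in striatum/thalamus. For the interaction of striatum/thalamus with cerebellum they were 5, beside 14 in DESeq2 and 15 with reference-gene scaling. Chosen after seeing the data, a fit without robust estimation called 17 in cortex, and 1 with Uty as a covariate for sex 0 in cerebellum and 22 in cortex. Rad51b and part of Mgmt are limited by the background.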

Other observations

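Of the 10 genes with the same 3 lowest pups in all 3 regions, Lair1, an inhibitory receptor of immune cells, and Pole, the catalytic subunit of a replicative DNA polymerase, were lowest in the same pups as Ercc2 (1, 5 and 6). Lair1 and Ercc2 both lie on chromosome 7 and Pole on chromosome 5 (GRCm38.p6). The next pup exceeded these 3 by a ratio of at least 1.18 for Lair1, 1.06 for Ercc2 and 1.02 for Pole, and for Fancc (pups 1, 3 and 5) by at least 1.03. The Y-linked genes Kdm5d and Uty were lowest in pups 6, 7 and 8, and the X-linked genes Kdm5c and Kdm6a in pups 1, 3 and 4. Uty had 487 to 957 raw counts in pups 1, 3 and 4 and 15 to 55 in all other pups. Its lowest pups are thus ranked among low counts only. High Uty fell in HIBI pups 1 and 4 and in sham pup 3. Slc2a1 and Hilpda completed the 10.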
